A study of Mus musculus with 20 samples.

Results

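The genes described here are 34 osteoblast, osteocyte and mineralization genes, chosen by name as genes that bone-forming cells use to specify their fate, lay down matrix and mineralize it. Of these, 33 were rows of the deposited table of 14793 genes, and Fgf23, which encodes a phosphate-regulating hormone of osteocytes, was not analysed here. Their RNA was measured by bulk RNA sequencing in the right knee (stifle) joints of 20 male C57BL/6Nci mice, 12 weeks old at the start, with 5 mice in each of 4 groups. All mice of all groups had surgical destabilization of the medial meniscus (DMM), an osteoarthritis model. Control joints then had needle insertion alone, MSC joints received non-activated adipose-derived mesenchymal stromal cells, TLR3-MSC joints received cells activated with polyinosinic-polycytidylic acid (pIC), and STING-MSC joints received cells activated with 2′,3′ c-GAMP. Cells were given in weeks 3 and 5 after surgery, all from 1 pool of donor fat, and joints were collected 8 weeks after surgery according to the methods, although the results text of the study places collection a day after injection. Because controls had a needle and no injected fluid, the cells and the fluid they came in cannot be told apart. Each joint was taken whole, with cartilage, synovium, capsule and the bone beneath the cartilage of femur and tibia, so that fewer bone cells and less RNA per bone cell cannot be told apart.

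Osteoblasts arise from mesenchymal progenitors under the transcription factors RUNX2 and osterix (encoded by Sp7), and secrete a collagen matrix rich in acidic, calcium-binding proteins. Mineral then forms where tissue-nonspecific alkaline phosphatase and matrix vesicle enzymes supply phosphate and remove pyrophosphate, an inhibitor of crystal growth. Osteoblasts buried in the matrix become osteocytes, which control bone formation and phosphate through proteins such as sclerostin, DMP1 and PHEX. In an osteoarthritic joint such cells lie in the subchondral plate, the trabecular bone and growing osteophytes.

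The files gave normalized counts, that is reads per gene divided by 1 size factor per joint, and the recovered totals were 27955496 to 52529972 reads per joint. No bone gene was at 0 in any joint. Log2 fold changes are on the log2(normalized count + 1) scale, errors of means are SD with n = 5, and a gene was called at an unadjusted p of at most 0.05 from limma over all 4 groups. The false discovery rate (FDR) was taken over all 14793 genes.

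Osteocalcin, a bone-restricted matrix protein, is encoded in the mouse by neighbouring copies, and their coding sequences are shown because they bear on how far the reads of each can be told apart. Bglap was counted at chromosome 3, 88290808 to 88291772, and Bglap2 at 88285043 to 88286007, both on the minus strand of GRCm39. The coding sequences below were joined from 4 coding exons each, spanning chr3:88290945-88291722 for Bglap and chr3:88285180-88285957 for Bglap2. Capitals mark the bases that differ.
Bglap: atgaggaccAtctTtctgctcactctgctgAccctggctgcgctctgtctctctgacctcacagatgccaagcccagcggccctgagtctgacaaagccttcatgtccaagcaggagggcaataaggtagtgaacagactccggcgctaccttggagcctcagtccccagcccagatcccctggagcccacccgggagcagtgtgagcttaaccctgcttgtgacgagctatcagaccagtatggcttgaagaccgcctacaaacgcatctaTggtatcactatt
Bglap2: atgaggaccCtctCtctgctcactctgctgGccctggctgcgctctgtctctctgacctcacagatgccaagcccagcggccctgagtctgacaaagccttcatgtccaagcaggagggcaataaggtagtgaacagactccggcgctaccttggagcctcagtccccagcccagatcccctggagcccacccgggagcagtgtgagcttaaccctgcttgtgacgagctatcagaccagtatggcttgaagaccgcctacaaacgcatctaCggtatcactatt
Of 285 bases in each, 281 (98.6%) were identical and 4 differed, and the longest identical run was 241 bases. Reads wholly inside that run could belong to either copy. The untranslated parts of the exons were not compared, and how the counting handled such reads was not examined. The split between Bglap and Bglap2 may therefore be uncertain, and their values are best read together.

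Promoter windows are shown for 3 bone-restricted genes, that of osteocalcin and 2 of osteocytes (Bglap, Dmp1 and Mepe), and for the 2 genes with the largest differences between groups (Cthrc1 and Tnn). They were read from GRCm39 as up to 250 bases before the canonical start, leaving out annotated exon, at chr3:88291772-88291990 (minus strand), chr5:104350226-104350475 and chr5:104472945-104473194 (plus strand), chr15:38940046-38940245 (plus strand) and chr1:159981151-159981400 (minus strand). Capitals mark the core letters bound by RUNX factors (TGTGGT, or ACCACA on the other strand), the homeodomain core TAATTA and the TATA box TATAAA.
Bglap: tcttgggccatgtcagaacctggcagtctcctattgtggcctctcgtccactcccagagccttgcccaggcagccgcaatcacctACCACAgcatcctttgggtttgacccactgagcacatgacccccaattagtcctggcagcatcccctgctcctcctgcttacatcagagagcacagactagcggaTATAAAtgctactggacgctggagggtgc
Dmp1: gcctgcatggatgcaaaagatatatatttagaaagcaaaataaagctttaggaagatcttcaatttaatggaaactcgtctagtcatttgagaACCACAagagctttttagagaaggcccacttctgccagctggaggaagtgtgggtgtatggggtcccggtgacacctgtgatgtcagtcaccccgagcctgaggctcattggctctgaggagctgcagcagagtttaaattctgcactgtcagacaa
Mepe: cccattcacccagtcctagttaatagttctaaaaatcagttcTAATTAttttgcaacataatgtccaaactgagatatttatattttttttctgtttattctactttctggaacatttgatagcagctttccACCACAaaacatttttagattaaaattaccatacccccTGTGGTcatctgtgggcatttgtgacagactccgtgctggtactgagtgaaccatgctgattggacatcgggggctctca
Cthrc1: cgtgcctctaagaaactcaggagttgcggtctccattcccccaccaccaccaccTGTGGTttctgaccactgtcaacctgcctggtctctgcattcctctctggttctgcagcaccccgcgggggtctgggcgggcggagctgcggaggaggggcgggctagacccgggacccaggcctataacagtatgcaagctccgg
Tnn: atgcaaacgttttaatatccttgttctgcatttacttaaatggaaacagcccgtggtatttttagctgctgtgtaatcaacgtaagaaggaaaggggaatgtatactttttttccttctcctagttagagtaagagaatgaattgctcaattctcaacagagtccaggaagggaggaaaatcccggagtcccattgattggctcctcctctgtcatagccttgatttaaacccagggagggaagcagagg
The RUNX core, searched on both strands, was in the windows of 9 of 33 bone genes (27.3%) and of 12.2% of 14770 genes of the table with an annotated start. The 9 were Bglap, Bglap2, Cthrc1, Dmp1, Mepe, Ifitm5, Pth1r, Slc36a2 and Cped1, of which Bglap and Bglap2 share sequence. The starts are those of GENCODE M39 and need not match the gene models used for counting. The window of Ifitm5 (chr7:140532099-140532348) lies apart from the gene as counted (140528871 to 140530205), so it may not be the promoter of that model. TAATTA, its own reverse complement, was found in 1 bone gene (Mepe) and in 3.02% of all windows, and TATAAA, searched on the gene's strand, in 1 (Bglap) and in 4.79%. The Bglap2 window (chr3:88286061-88286310) ends before the bases that would line up with the TATAAA of Bglap. Those bases were not searched in Bglap2. A match of letters is a description of the window and not a bound site, and the shorter windows of Bglap and Cthrc1 hold every match found in their full ones.

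Per kilobase of exon, the bone genes ranged from above 5.2% to above 99.7% of all genes of the table. Exon lengths and overlaps were taken from GENCODE M39, which need not match the gene models used for counting, so values and ranks per kb are approximate. Sparc, which encodes osteonectin, had the highest mean, 27932 normalized counts per kb over 20 joints (10032 to 64907). Bglap (7211), Spp1 (6994), Ibsp (6145) and Bglap2 (4279) followed in mean counts per kb. The ranges of these 4 over the joints overlapped, at 3038 to 13214 for Bglap and 3105 to 17519 for Spp1. The lowest means per kb were those of Dlx6 (14.7), Ifitm5 (7.96) and Phospho1 (5.01). The exon length used for Ifitm5, 2.659 kb, is longer than the whole gene as counted (chromosome 7, 140528871 to 140530205). Its value per kb is therefore likely too low, and its rank beside Dlx6 is uncertain. Ifitm5 shared exon with Gm45717 on the same strand and Phospho1 with Zfp652, and whether the counting used strand is not given in the sources used here, so these low values are uncertain. Spp1 (with Gm42793), Alpl (Gm63526) and Ank (Mir7117) also shared exon on the same strand. Gja1 (with Gm68148), Pth1r (Myl3), Smpd3 (Prmt7 and Gm63975), Runx2, Vdr, Irx5, Cped1 and Dlx6 shared exon with genes on the other strand. Part of the reads of these genes may therefore belong to the overlapping genes. Dmp1, Ibsp, Mepe and Spp1, which encode acidic phosphoproteins of the SIBLING family, lay in 1 cluster on chromosome 5, from 104350479 to 104588917.

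In the comparisons with control, the joints that received STING-MSC had less RNA of several matrix genes, while osteocalcin and the osteocyte genes other than Pdpn had log2 fold changes near 0 or above it. Tnn, Cthrc1, Spp1 and Gja1 were lower in STING-MSC joints than in control joints, 4 of 33 bone genes (12.1%) against 5.69% of all genes lower at the same threshold. Of these, 3 (Tnn, Cthrc1 and Spp1) also had a fold of at least 2, against 1.78% of all genes. After MSC, 1 bone gene (Dlx5) was lower, against 2.91% of all genes, a share of the members (3.03%) near that of the table. After TLR3-MSC, limma called 0 of 33, against 3.58% of all genes in either direction, and the smallest p was that of Sp7. The median log2 fold change of the 33 genes was -0.31 in MSC, -0.22 in TLR3-MSC and -0.35 in STING-MSC joints, against -0.036, -0.0068 and 0.0078 for all genes. The log2 fold change was below 0 for 26, 27 and 28 of the 33 genes, and these comparisons share the same 5 control joints. No bone gene reached an FDR of 0.05 in any of the 6 pairs of groups in limma, edgeR or DESeq2, and of all genes limma called 0.00676% for MSC against control and 0% for the other pairs and for the test among all 4 groups. In this count DESeq2 gave no adjusted value for Dlx6, Phospho1 and Ifitm5 in MSC against control.

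The number called for STING-MSC depended on the test and on single control joints. On the recovered reads, edgeR's quasi-likelihood test called 11 bone genes and DESeq2 called 12 at the same unadjusted threshold, all lower, against 13.3% and 15.2% of all genes called in either direction. The other shares of all genes in this paragraph also count both directions. Both lists held Tnn, Cthrc1, Spp1, Gja1, Creb3l1, Ibsp, Sparc, Pdpn, Cdh11, Tmem119 and Fkbp11, and DESeq2 added Alpl. Fitted on the 2 groups only, limma called 9, against 15.5% of all genes, and after quantile normalization 6, against 12.0%. In limma over all groups, 11 were called without control 1 and 10 without control 5, against 15.7% and 14.2% of all genes. Without control 3 and without control 4 the same 2 (Cthrc1 and Tnn) were called, against 7.47% and 5.87%, so that the count over all genes moved with that of the bone genes. For all genes in either direction the share with every joint in was 12.2%. For MSC against control the count was 10 without MSC 2, 4 without control 1 and 2 without MSC 5 (Ank and Cped1), against 16.7%, 11.2% and 13.0% of all genes, and 8.55% with every joint in. It was 0 without control 2, control 4, MSC 3 or MSC 4, against 5.76% to 7.47% of all genes, and without control 3 it was 1 (Mepe, higher, in place of Dlx5), against 7.40%.

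**Figure D1:**
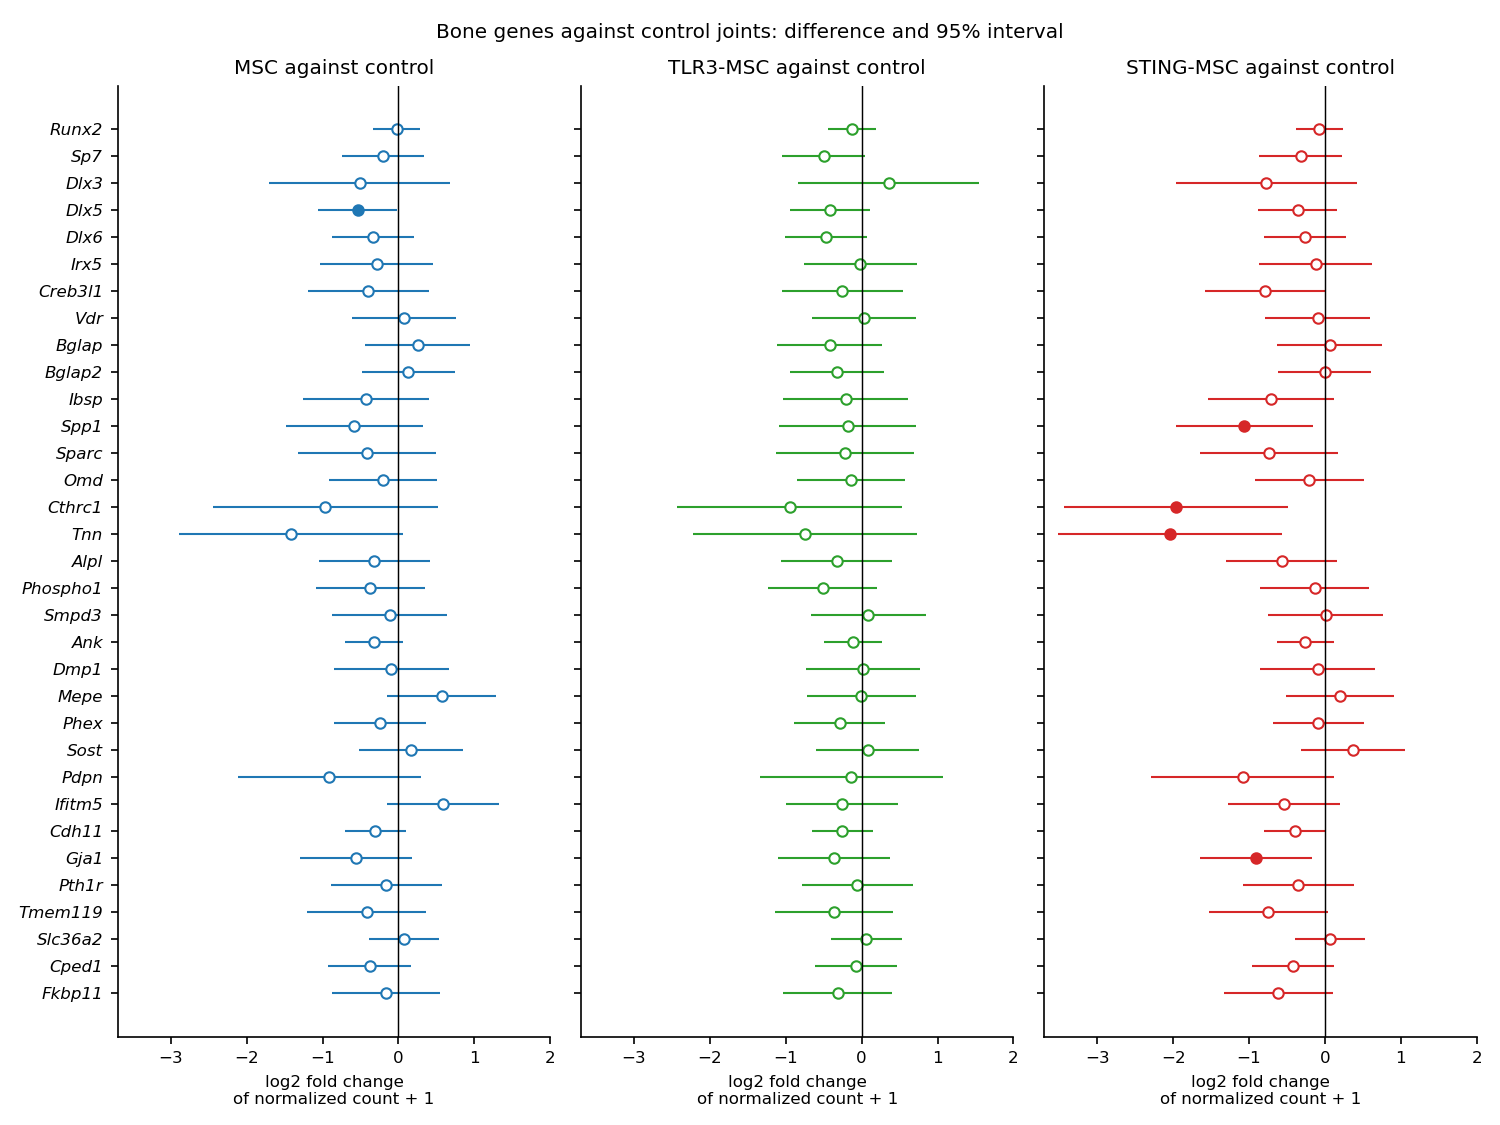
Log2 fold change of the normalized count + 1 (horizontal axis) of 33 bone genes (vertical axis) in MSC, TLR3-MSC and STING-MSC joints against control joints, 5 joints per group. Points are limma estimates over all 4 groups, lines are 95% intervals, and filled points have an unadjusted p of at most 0.05: Dlx5 for MSC, none for TLR3-MSC, and Tnn, Cthrc1, Spp1 and Gja1 for STING-MSC.

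Among the transcription factors, Runx2, which commits mesenchymal cells to the osteoblast lineage, had the narrowest interval around no change. Runx2 was 1328 ± 164 in control, 1317 ± 253 in MSC, 1222 ± 201 in TLR3-MSC and 1272 ± 223 in STING-MSC joints. Its log2 fold change against control was -0.026, -0.13 and -0.072, with a 95% interval for STING-MSC of -0.38 to 0.24. Runx2 shares exon with Runx2os1 and Supt3 on the other strand, so part of its reads may belong to them. Sp7, which acts after Runx2 in the same lineage, was 609.7, 809, 1561, 1162 and 609 in control joints 1 to 5 and 831, 734, 559, 390.5 and 714 in TLR3-MSC joints. These groups overlapped, with control 3 and control 4 above every TLR3-MSC joint and TLR3-MSC 4 lowest of all (log2 fold change -0.50, SE 0.26, p = 0.0687 and FDR = 1 from limma, exact permutation p = 0.19). Sp7 passed the unadjusted threshold in DESeq2 (log2 fold change -0.56), and in limma without control 1, control 5 or TLR3-MSC 1. For this comparison limma called 2 bone genes without control 1 (Sp7 and Dlx5), 2 without TLR3-MSC 1 (Sp7 and Dlx6), 1 without control 5 (Sp7) and 1 without TLR3-MSC 5 (Dlx6), against 5.48%, 3.37%, 2.51% and 3.81% of all genes.

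Dlx5, a homeodomain factor of early osteoblasts, was 199, 297, 429, 357 and 219.8 in control joints and 259, 288, 211, 113 and 171 in MSC joints. MSC 4 and MSC 5 lay below every control joint and the other 3 within the control range (log2 fold change -0.54, SE 0.25, p = 0.0434 and FDR = 0.572 from limma, exact permutation p = 0.135). The call was lost without control 2, 3 or 4, without MSC 3, 4 or 5, in edgeR, with the 2 groups only, after quantile normalization and with the replicate number as a block, with log2 fold changes from -0.34 (without MSC 4) to -0.56 (without MSC 3). Dlx6, its neighbour in the genome, had 19.7 to 61.6 normalized counts over all joints and log2 fold changes of -0.34, -0.47 and -0.26 against control. Dlx3, the homeodomain factor mutated in tricho-dento-osseous syndrome, spread from 148 to 2365 among MSC joints alone, and no comparison of it passed in limma. Irx5, an Iroquois factor (81.4 to 278 over all joints), and Vdr, the vitamin D receptor (201 to 970.1), had log2 fold changes against control between -0.29 and 0.077. Creb3l1, the endoplasmic reticulum stress sensor OASIS that drives type I collagen transcription in osteoblasts, was 1302 ± 775 in control and 648 ± 65.1 in STING-MSC joints, with p = 0.0534 from limma, exact permutation p = 0.119.

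The matrix genes held the largest differences. Tnn (ENSMUSG00000026725, chromosome 1, 159912599 to 159981151, minus strand), which encodes tenascin-N, a glycoprotein of periosteum and osteogenic matrix, was 896, 2318, 4729, 5358 and 1776 in control joints and 551, 813, 689, 962 and 266 in STING-MSC joints. Only control 1 lay within the STING-MSC range, and 4 of 5 STING-MSC joints were below every control joint (log2 fold change -2.04, SE 0.71, p = 0.00939 and FDR = 0.329 from limma, exact permutation p = 0.0159). In MSC joints Tnn was 446, 5867, 759, 459.9 and 751, where 4 of 5 joints were below every control joint and MSC 2 was above all of them (log2 fold change -1.42, p = 0.0591 from limma, exact permutation p = 0.143). In TLR3-MSC joints it was 1013, 2603, 1678, 371 and 4295, overlapping control over most of its range (log2 fold change -0.74, 95% CI -2.22 to 0.73).

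Cthrc1 (ENSMUSG00000054196, chromosome 15, 38940327 to 38950517, plus strand), which encodes a secreted protein of remodelling matrix made by activated fibroblasts as well as osteoblasts, was 397, 1353, 3794, 3748 and 570.2 in control joints. In STING-MSC joints it was 358, 362, 386, 349.8 and 277, so that every STING-MSC joint lay below every control joint, as for 1.24% of all genes (log2 fold change -1.96, SE 0.71, p = 0.0121 and FDR = 0.331 from limma, exact permutation p = 0.00794). The exact p is the smallest that 5 joints against 5 allow, and the gap between control 1 and the highest STING-MSC joint was small beside the spread of the controls. The corresponding counts were 511, 2922, 558, 259 and 713 in MSC joints and 483, 1257, 387, 256 and 2672 in TLR3-MSC joints. In each of these groups 1 joint (MSC 2 and TLR3-MSC 5) stood above the rest, and 1 MSC and 2 TLR3-MSC joints were below all controls.

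Spp1 (ENSMUSG00000029304, chromosome 5, 104582984 to 104588917, plus strand), which encodes osteopontin, a phosphoprotein of bone that macrophages and chondrocytes also make, was 12034, 17187, 48010.3, 49808 and 13794 in control joints. It was 13319.5, 8826, 11638, 10622 and 11717 in STING-MSC joints, 4 of them below every control joint (log2 fold change -1.06, SE 0.43, p = 0.0233 and FDR = 0.368 from limma, exact permutation p = 0.0159). The call rested on control 3 and control 4, since leaving out either ended it (log2 fold change -0.80 and -0.79). TLR3-MSC joints had 22021, 19352, 21915, 10154 and 38084, and Spp1 had the smallest p of the bone genes between STING-MSC and TLR3-MSC joints (log2 fold change -0.88, SE 0.43, p = 0.0552 and FDR = 0.89 from limma, exact permutation p = 0.0397). No bone gene was called in that comparison by limma, against 2.57% of all genes in either direction. In edgeR 4 were called (Dlx3, Spp1, Cthrc1 and Tnn) and in DESeq2 5 (the same and Pdpn), all lower, against 4.09% and 4.57% of all genes in either direction. In limma 1 was lower without TLR3-MSC 1 (Dlx3) and 3 without TLR3-MSC 4 (Spp1, Tnn and Gja1), against 5.12% and 3.65% of all genes called in either direction. Without STING-MSC 5 the 2 called (Bglap and Phospho1) were higher, against 1.13% in either direction.

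Ibsp, which encodes bone sialoprotein, and Sparc had control 4, MSC 2 and TLR3-MSC 5 at the top of their groups, as did Spp1, but did not pass in limma. Ibsp was 16577 ± 9695 in control and 8848 ± 1377 in STING-MSC joints (log2 fold change -0.71, p = 0.0878 from limma, exact permutation p = 0.127), and Sparc was 154162 ± 92978 and 81052 ± 16806 (log2 fold change -0.74, p = 0.105 from limma, exact permutation p = 0.135). Omd, which encodes osteomodulin, a keratan sulfate proteoglycan of bone, ranged from 337 to 1309 over all joints with log2 fold changes of -0.21, -0.14 and -0.20.

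Neither osteocalcin copy was called in limma over all 4 groups with every joint in, while some other settings called Bglap. Bglap was 4516, 3078, 7374, 4467 and 2903 in control joints, 4811, 5878, 8167, 4034 and 3430.2 in MSC joints and 5451, 4950.2, 8074, 3129.7 and 2409 in STING-MSC joints, with wide overlap. Its log2 fold change for STING-MSC against control was 0.061 (95% CI -0.63 to 0.75), and that of Bglap2 was -0.0038 (95% CI -0.62 to 0.61). TLR3-MSC joints had the lowest mean of Bglap, 3291 ± 1069 against 5264 ± 1863 in MSC joints, a log2 difference of -0.68 with p = 0.0539 from limma, exact permutation p = 0.0635. Whether Bglap differed from Tnn or Cthrc1 in its response was not tested, and an interval that holds 0 does not show that the groups were equal.

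**Figure D2:**
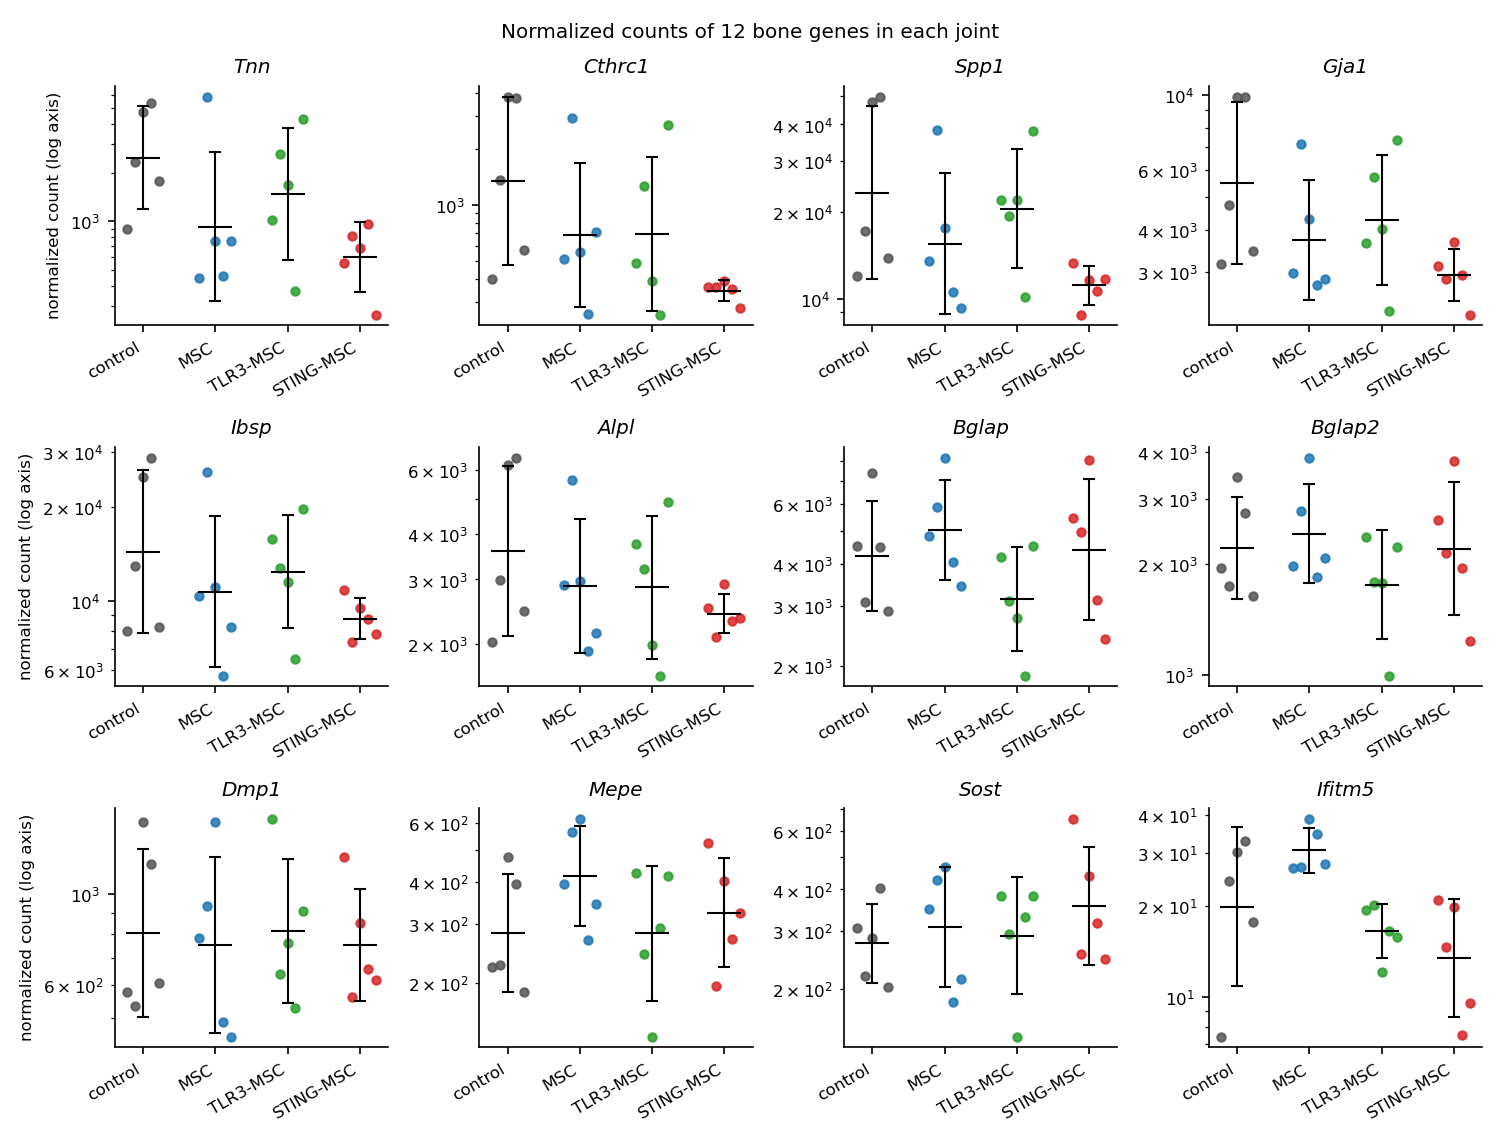
Normalized counts (vertical log axis) of 12 bone genes in each joint of the 4 groups. Points are joints, the wide bar is the geometric mean and the whiskers are 1 SD of the log2 values. For Tnn, Cthrc1, Spp1 and Gja1 the STING-MSC joints lie near or below the lowest control joints, while Bglap, Dmp1, Mepe and Sost overlap in all groups, and for Ifitm5 every MSC joint lies above every TLR3-MSC and STING-MSC joint.

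None of the 4 genes of the phosphate and mineralization machinery was called in limma with every joint in, in any of the 6 pairs of groups. Alpl, which encodes tissue-nonspecific alkaline phosphatase, was 2021, 2993, 6170.3, 6466 and 2466 in control and 2501, 2088, 2912, 2315 and 2349 in STING-MSC joints. Controls 3 and 4 were highest and the other 3 controls overlapped the STING-MSC joints (log2 fold change -0.57, 95% CI -1.30 to 0.16). Smpd3, which encodes the neutral sphingomyelinase of matrix vesicles, was 1697 ± 997 in control and 1511 ± 307 in STING-MSC joints, a log2 fold change of 0.0087 in limma and -0.18 in edgeR. Ank, the pyrophosphate exporter that restrains mineral, varied least of the 4, from 5196 to 11001 over all joints, with log2 fold changes of -0.32, -0.11 and -0.26. Phospho1, the matrix vesicle phosphatase, had 12.5 to 52.5 normalized counts, and its values rest on few reads.

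The osteocyte genes showed no called difference in limma over all 4 groups with every joint in, in any of the 6 pairs. Dmp1, which nucleates mineral and is made by young osteocytes, was 880.1 ± 434 in control, 829 ± 421 in MSC, 872 ± 389 in TLR3-MSC and 784 ± 272 in STING-MSC joints. Mepe, another SIBLING protein, was 222, 226, 476, 394 and 187 in control and 394, 563, 618, 268 and 345 in MSC joints. Every MSC joint was above 3 of the 5 controls (log2 fold change 0.57, p = 0.112 from limma, exact permutation p = 0.135), and Mepe was called only without control 3. Sost, which encodes the Wnt inhibitor sclerostin of mature osteocytes, was 306, 219, 285, 403 and 203 in control and 654, 256, 439, 317 and 246 in STING-MSC joints. STING-MSC 1 was the highest of all 20 joints (log2 fold change 0.37, 95% CI -0.31 to 1.06). Phex, the endopeptidase lost in X-linked hypophosphatemia, had a log2 fold change of -0.084 for STING-MSC (95% CI -0.69 to 0.52).

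Pdpn (podoplanin, an early osteocyte protein that synovial lining cells also carry) was 689, 851, 1568, 2771 and 610.3 in control and 579.6, 654, 566, 569.7 and 295 in STING-MSC joints, 4 of them below every control joint. The log2 fold change of Pdpn was -1.08 (95% CI -2.29 to 0.12, p = 0.0752 from limma, exact permutation p = 0.0159). STING-MSC 5 was low for this gene, and MSC 4 lower still at 115.

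Among the membrane, junction, signalling and secretory genes, Gja1 (ENSMUSG00000050953, chromosome 10, 56253426 to 56278610, plus strand), which encodes the gap junction protein connexin 43 of osteoblasts and osteocytes, was 3166, 4714, 9872, 9838 and 3448 in control joints. In STING-MSC joints it was 3122, 2859.8, 3669, 2942 and 2242, 4 of them below every control joint (log2 fold change -0.91, SE 0.35, p = 0.0195 and FDR = 0.364 from limma, exact permutation p = 0.0317). The call was lost without control 3 (log2 fold change -0.69) and without control 4 (-0.70), the joints with the highest counts. Cdh11, the osteoblast cadherin also found on synovial fibroblasts, was 2270.1 ± 624 in control and 1681 ± 183 in STING-MSC joints (p = 0.0525 from limma, exact permutation p = 0.103). Tmem119, a membrane protein of differentiating osteoblasts, was 1479 ± 736 and 807 ± 129 (p = 0.0607 from limma, exact permutation p = 0.0476), and Fkbp11, a peptidyl-prolyl isomerase of the secretory pathway, was 247 ± 129.6 and 143 ± 18.01 (p = 0.0888 from limma, exact permutation p = 0.167). Pth1r, the receptor of parathyroid hormone, Slc36a2, a proton-coupled amino acid transporter, and Cped1 had log2 fold changes for STING-MSC of -0.35, 0.069 and -0.42, none of them called.

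Ifitm5 (ENSMUSG00000025489, chromosome 7, 140528871 to 140530205, minus strand), which encodes a bone-restricted membrane protein of mineralizing osteoblasts mutated in a form of osteogenesis imperfecta, was the only bone gene that limma called between the cell-treated groups. Its counts were few, 26.8, 26.9, 38.8, 34.6 and 27.5 in MSC joints, 19.4, 20.2, 12.1, 16.6 and 15.8 in TLR3-MSC joints and 20.98, 14.7, 19.8, 7.5 and 9.59 in STING-MSC joints. Every MSC joint was above every joint of both other groups, while control joints, at 7.41, 24.2, 30.2, 32.9 and 17.7, spanned nearly the whole range. Against MSC, Ifitm5 was lower in TLR3-MSC joints (log2 fold change -0.85, SE 0.35, p = 0.0265 and FDR = 0.978 from limma, exact permutation p = 0.00794) and in STING-MSC joints (log2 fold change -1.12, SE 0.35, p = 0.0049 and FDR = 0.797 from limma, exact permutation p = 0.00794). These were 1 of 33 bone genes in each comparison, against 1.99% and 2.17% of all genes lower at that threshold. Every value of the first group lay below every value of the second in 0.311% and 0.548% of all genes. Without MSC 3, MSC 4 or TLR3-MSC 3 the call for TLR3-MSC was lost (log2 fold change -0.76, -0.80 and -0.74), and the call for STING-MSC held without each joint. The number of bone genes called for TLR3-MSC against MSC was 0 without MSC 3 or TLR3-MSC 3, 2 without MSC 5, TLR3-MSC 1 or TLR3-MSC 5, and 5 without MSC 2, when Dlx3, Tnn, Pdpn and Cped1 were higher in TLR3-MSC. Without MSC 2 the share of all genes called in either direction was 9.98%, against 2.90% to 6.13% without those other joints and 3.88% with every joint in. For STING-MSC against MSC the number of bone genes called was 2 without MSC 4 (with Dlx3) and 2 in edgeR and DESeq2, which added Cthrc1. The shares of all genes called in either direction were 6.55%, 4.85% and 6.26%, and 4.94% in limma with every joint in. Against control, Ifitm5 had log2 fold changes of 0.58, -0.26 and -0.54, none called. It was also the 1 bone gene called by the limma F-test of any difference among the 4 groups (FDR = 0.736), against 6.42% of all genes. In GENCODE M39, Gm45717 overlaps its exons on the same strand, so part of the reads of both may not be told apart. Whether the gene models used for counting overlap in the same way was not examined.

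Much of the variation of the bone genes lay between joints of the same group. Control 4 had the highest count of 19 of 33 bone genes among controls and control 3 of 13, while control 1 had the lowest of 18. In MSC joints, MSC 2 was highest for 22 genes and MSC 3 for 10, and MSC 4 was lowest for 20. In TLR3-MSC joints, TLR3-MSC 5 was highest for 17 and TLR3-MSC 1 for 13, and TLR3-MSC 4 was lowest for 25. The joints at the top split by gene: MSC 2 led for Ibsp, Spp1, Sparc, Tnn, Cthrc1 and Alpl, whereas MSC 3 led for Bglap, Bglap2, Dmp1, Mepe, Phex, Sost and Ifitm5. In the same way TLR3-MSC 5 led for Spp1, Sparc, Tnn and Cthrc1 and TLR3-MSC 1 for Dmp1, Mepe, Phex and Sost. These sets of genes were seen in the values and were not tested. STING-MSC joints lacked a joint with high Tnn, Cthrc1, Spp1 and Gja1. The median SD of the log2 values of the bone genes was 0.35 in STING-MSC, 0.57 in TLR3-MSC, 0.61 in MSC and 0.68 in control joints, against 0.21, 0.23, 0.30 and 0.22 for all genes. The STING-MSC group had the smallest SD of the 4 groups for 20 of 33 bone genes, and the difference in spread was not tested. The median SD over all genes was also lowest in STING-MSC joints. The share of all genes with their smallest SD in that group was not computed.

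**Figure D3:**
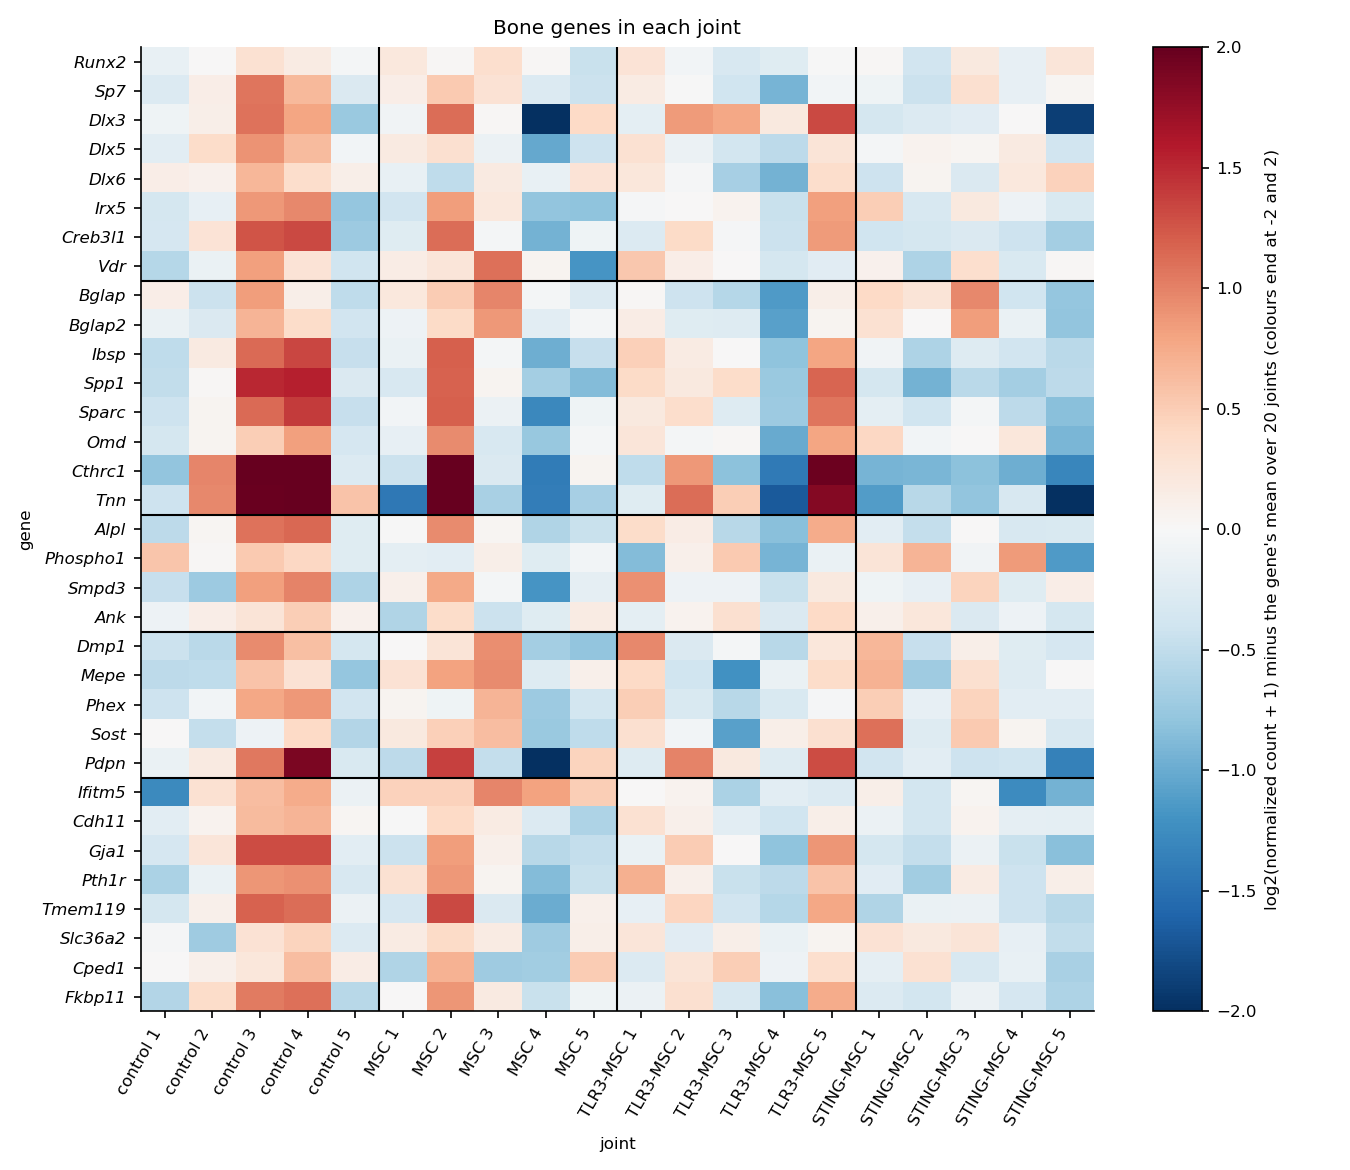
Log2(normalized count + 1) of 33 bone genes (rows, in 5 role groups divided by lines) in 20 joints (columns, in 4 treatment groups divided by lines), minus each gene's mean over all joints. Red is above and blue below the mean, with colours ending at 2 log2 units. Control 3, control 4, MSC 2 and TLR3-MSC 5 are red for most matrix genes, and MSC 4 and TLR3-MSC 4 are blue for most genes.

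To describe how the bone genes moved together, each was correlated with Sp7 over the 20 joints after subtracting group means, with 100000 permutations of joints within groups and Benjamini-Hochberg adjustment over 39 relations. All 32 other bone genes had r above 0, with a median Pearson's r of 0.734, and 23 had an adjusted permutation p of at most 0.05. The share of all genes that follow Sp7 in this way was not computed, so these counts have no background beside them. The strongest were Cdh11 (r = 0.933, Spearman's rho = 0.956), Pth1r (r = 0.907, rho = 0.917) and Alpl (r = 0.900, rho = 0.941), each with a permutation p of 1e-05 for r and for rho, the smallest the permutations can give, and an adjusted p of 0.00013. Phospho1 (r = 0.037), Cped1 (r = 0.046) and Ank (r = 0.167) stood at the other end, with adjusted permutation p from 0.543 to 0.87. Without control 3 and TLR3-MSC 4, the joints farthest from the median of Sp7, the median r was 0.688, with a range from -0.271 (Phospho1) to 0.946 (Cdh11), and the 23 genes kept a positive r. The same relation was not confined to bone-forming cells, since Ctsk, the osteoclast protease (r = 0.812, rho = 0.824, adjusted permutation p = 0.00129 and 0.00156), and Acan, the cartilage proteoglycan aggrecan (r = 0.809, rho = 0.847, adjusted permutation p = 0.000997 and 0.00091), followed Sp7 as closely. The muscle actin gene Acta1 had r = -0.451 (rho = -0.481, adjusted permutation p = 0.0624 and 0.0544). The genes for lubricin (Prg4, r = 0.296), adiponectin (Adipoq, r = -0.401), beta globin (Hbb-bs, r = -0.243) and neutrophilic granule protein (Ngp, r = -0.134) had adjusted permutation p from 0.182 to 0.646. All values of a joint share 1 dissection and 1 size factor, so the share of bone in each sample enters every relation, and its part was not tested.

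**Figure D4:**
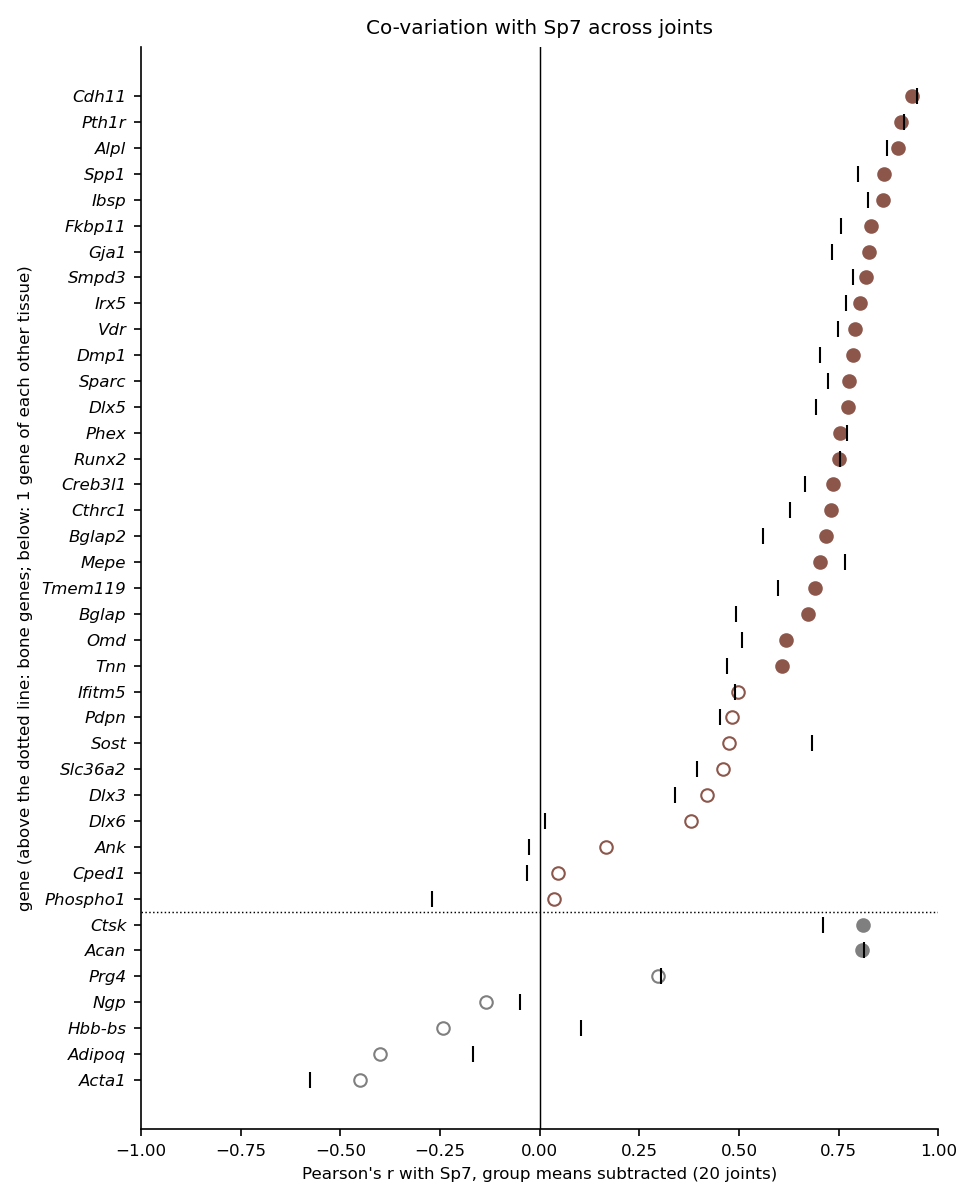
Pearson's r with Sp7 (horizontal axis) of 32 bone genes above the dotted line and of 1 gene for each of 7 other tissues below it, over 20 joints after subtracting group means. Filled points have an adjusted permutation p of at most 0.05, and black ticks give r without control 3 and TLR3-MSC 4. Cdh11 is highest at 0.933 and Phospho1 lowest of the bone genes at 0.037, while Ctsk and Acan reach 0.812 and 0.809.

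Of 52 further bone-formation genes listed beside these members, 50 were in the table, and 14 were lower and 0 higher in STING-MSC than in control joints, against 5.69% lower and 6.54% higher of all genes in limma. This list, like the members, was chosen with earlier results of these data known, so its counts are a description and not independent support. Bglap3 and Ahsg were not analysed here. The median log2 fold change of the 50 was -0.27, -0.18 and -0.41 for MSC, TLR3-MSC and STING-MSC. The 6 with the smallest p for STING-MSC were Postn, the matrix protein periostin of periosteum and ligament (3408 ± 873 against 12785 ± 8917, log2 fold change -1.62), Mmp14, a membrane collagenase (-1.43), Wnt16 (-2.10), Enpp1, which makes pyrophosphate (-1.82), Col24a1, a fibrillar collagen (-0.95), and Lox, the collagen cross-linking enzyme (-1.24), with p from 0.00444 to 0.0204 and FDR from 0.291 to 0.367 in limma. Postn was lower after MSC as well (log2 fold change -1.44, p = 0.00964 from limma, exact permutation p = 0.0556), together with Wnt16 (-1.68), and lower after TLR3-MSC (-1.12, p = 0.0373 from limma, exact permutation p = 0.151), together with Col24a1 (-0.82). Between the cell-treated groups, Tnfsf11, which encodes the osteoclast factor RANKL, was lower in STING-MSC than in MSC joints (log2 fold change -0.99, p = 0.00556 and FDR = 0.808 from limma), and Wnt10b was higher in TLR3-MSC than in MSC joints (0.74, p = 0.0234 from limma, exact permutation p = 0.119). Of the 50 genes, 0 were called between STING-MSC and TLR3-MSC joints, against 2.57% of all genes. Those lower after MSC were 4% of the 50, against 2.91% of all genes, and those lower after TLR3-MSC 4%, against 0.906%. Tnfsf11 was 2% of the 50, against 2.17% of all genes lower, and Wnt10b 2%, against 1.89% higher. These last 2 shares were near those of the table.

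Some marker lists of other tissues differed as well, mainly tendon, ligament and endothelial genes lower and neutrophil genes higher in STING-MSC than in control joints. Summed over 6 tendon and ligament genes (Tnmd, Scx, Mkx, Thbs4, Fmod and Kera), normalized counts were 11879 to 63293 in control, 4241 to 56735 in MSC, 10179.7 to 45299 in TLR3-MSC and 5339 to 11552 in STING-MSC joints. Of the 6, 3 (Thbs4, Fmod and Tnmd) were lower in STING-MSC than in control joints, with a median log2 fold change of -1.32, and the same joints were highest as for Tnn and Spp1 (control 4, MSC 2 and TLR3-MSC 5). Over all genes, 5.69% were lower and 6.54% higher in STING-MSC than in control joints at the same unadjusted threshold. The 10 synovial fibroblast genes summed to 171203 to 574275 in control and 54455 to 223788 in STING-MSC joints, with 1 of 10 lower (Sfrp1). The 18 chondrocyte genes summed to 47239 to 215169 and 49986 to 113811, with 0 of 18 called by limma, and were again highest in control 4, MSC 2 and TLR3-MSC 5. Of 12 osteoclast genes, 1 (Ctsk) was lower after STING-MSC, and of 6 endothelial genes 4 were lower. Neutrophil genes moved the other way, with 9 of 12 higher after STING-MSC and 7 after MSC, against 6.54% and 5.64% of all genes higher. Of 15 muscle, 10 erythroid and 10 adipocyte genes 0 were called for STING-MSC, of 9 B-lineage genes 1 was lower, and 7 epidermis genes summed to at most 165 in STING-MSC joints, but to 7652 in control 1 and 23942 in TLR3-MSC 4. The part of tissue composition in the lower Tnn, Cthrc1, Spp1 and Gja1 of STING-MSC joints was not tested.

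**Figure D5:**
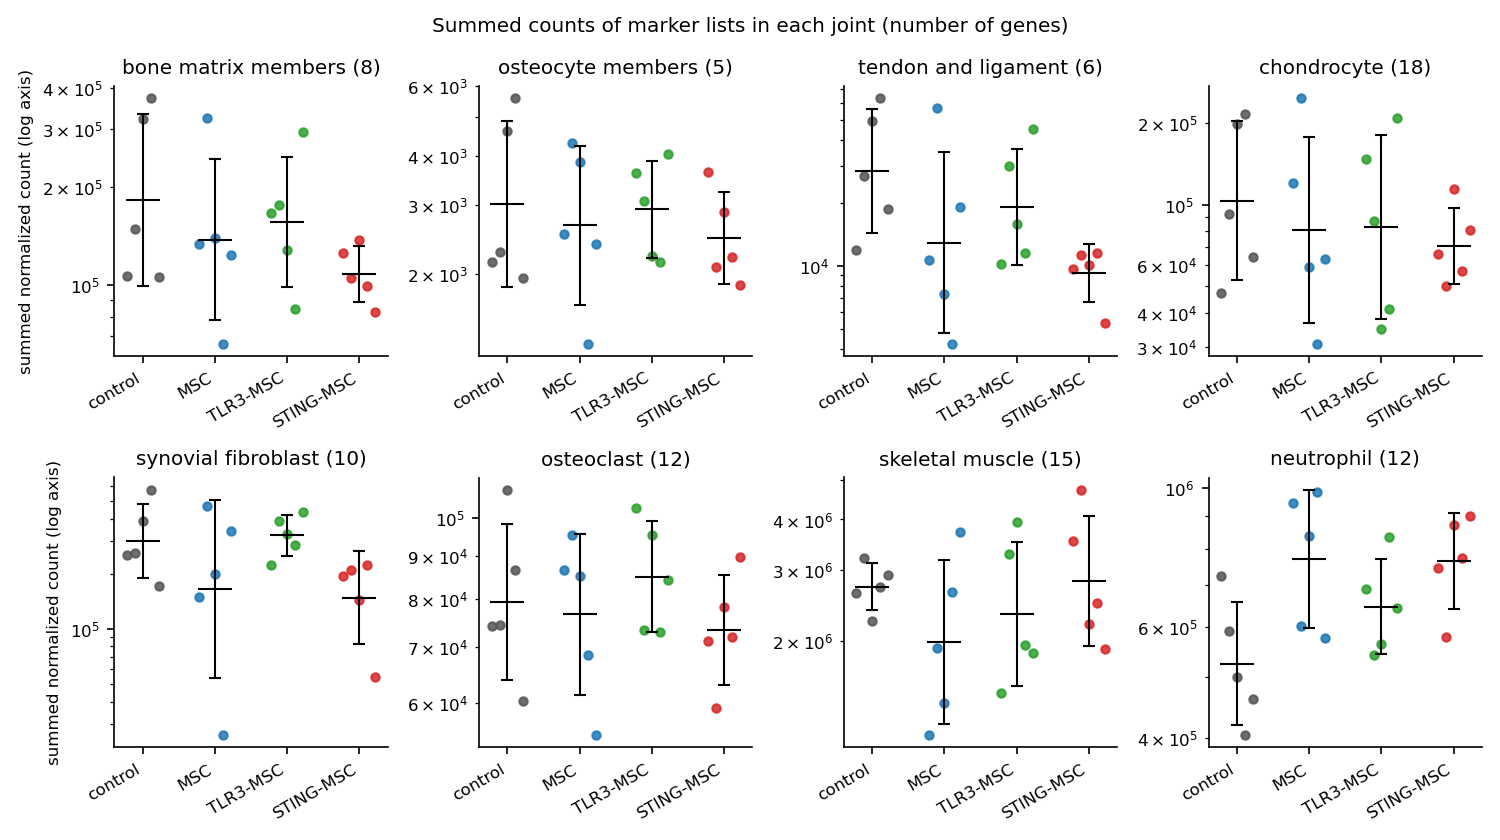
Summed normalized counts (vertical log axis) of 2 groups of bone genes and 6 lists of markers of other tissues in each joint. Points are joints, the wide bar is the geometric mean and the whiskers are 1 SD of the log2 values. Tendon and ligament sums in STING-MSC joints (5339 to 11552) lie below every control joint (11879 to 63293), as single values did for 1.24% of all genes. Neutrophil sums are 577573 to 900862 in STING-MSC against 403412 to 723994 in control joints.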

How the data were processed

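RNA from the joints was sequenced as poly-A libraries. The authors aligned reads to GRCm39 with STAR 2.7.3a, counted them per gene with HT-seq on the Ensembl annotation in Partek Flow, and named DESeq2. Strand use and any filter on low counts are not given in the sources used here. The authors deposited normalized counts, a signal in which each joint's counts were divided by a size factor. Whole reads were recovered from the size of 1 read (99.8% to 99.9% of values whole within 0.1 read) and used only for the count tests and depth, which covers counting error only.

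Samples were grouped by their titles. The members, gene lists and tests were chosen with earlier results of these data known. Contrasts were fitted to log2(normalized count + 1), where 1 is the pseudocount, with limma 3.58.1 (trend option, R 4.3.3) over 20 joints and all 14793 genes, in place of the count test that the authors name. Benjamini-Hochberg FDR was taken over all genes, and single genes also had exact two-sided permutation tests of 5 joints against 5. Co-variation with Sp7 used permutations within groups. The settings tried beside these were a pseudocount of 0.5 or of 5, means of at least 20, 2 groups only, quantile normalization, edgeR 4.0.16, DESeq2 1.42.0, a replicate block and each joint left out. The scripts were tested on simulated data. A member was named with its test where its unadjusted p was at most 0.05 or the smallest of the members in a comparison, and at most 6 of the other bone-formation genes were named per comparison. Creb3l1, Pdpn, Tmem119 and other members given with a p beyond this rule were chosen after their values were seen. Marker lists covered osteoclasts, chondrocytes, muscle, erythroid cells, neutrophils, B lineage, adipocytes, synovial fibroblasts, tendon and ligament, endothelium and epidermis. Sequences were read from the GRCm39 genome with GENCODE M39.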

Additional observations from a re-analysis of the deposited data

Results flagged for a closer look

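In 5 of 132 sets (33 genes in 4 groups of 5 joints) 1 joint stood apart from the others by Dixon's test at the 95% level, where chance alone flags about 1 in 20. Tnn was 5867 in MSC 2 and 446 to 759 in the other 4 MSC joints. Dlx3 was 296 in STING-MSC 5 against 860.2 to 1104 in the other STING-MSC joints, and Pdpn was 295 in the same joint against 566 to 654. Sost was 143 in TLR3-MSC 3 against 294 to 383 in the other TLR3-MSC joints. Slc36a2 was 226 in MSC 4 against 403 to 484 in the other MSC joints.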

How the results depend on the processing

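Pseudocounts of 0.5 and 5 and a minimum mean of 20 kept the same bone genes called in each of the 6 pairs of groups and in the test among all groups. The share of all genes called is in parentheses. With the 2 groups only, 0 bone genes were called for MSC against control (6.14%), 9 for STING-MSC against control (15.5%), 2 for TLR3-MSC against MSC (2.32%) and 5 for STING-MSC against TLR3-MSC (8.5%). After quantile normalization the counts were 0 for MSC against control (8.63%), 6 for STING-MSC against control (12.0%), 2 for TLR3-MSC against MSC (3.84%), 1 for STING-MSC against TLR3-MSC (2.7%) and 2 among all groups (6.29%). In edgeR they were 0 for MSC against control (8.85%), 11 for STING-MSC against control (13.3%), 2 for STING-MSC against MSC (4.85%), 4 for STING-MSC against TLR3-MSC (4.09%) and 4 among all groups (7.35%). In DESeq2 they were 1 for TLR3-MSC against control (4.25%), 12 for STING-MSC against control (15.2%), 2 for TLR3-MSC against MSC (4.69%), 2 for STING-MSC against MSC (6.26%), 5 for STING-MSC against TLR3-MSC (4.57%) and 5 among all groups (9.72%). The cause of these shifts was not tested.

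With each joint left out in turn, the number called was 0 to 10 for MSC against control, 0 to 2 for TLR3-MSC against control, 2 to 11 for STING-MSC against control, 0 to 5 for TLR3-MSC against MSC, 1 to 2 for STING-MSC against MSC, 0 to 3 for STING-MSC against TLR3-MSC and 0 to 5 among all groups. The test among all groups called 5 without control 1 or MSC 2 (8.84% and 11.2%), 3 without TLR3-MSC 4 or TLR3-MSC 5 (6.5% and 6.19%), and 0 without MSC 3, MSC 4, STING-MSC 4 or STING-MSC 5 (5.12% to 6.04%). For the median log2 fold change of the bone genes, without single joints the 3 comparisons with control gave ranges of -0.43 to -0.11 (MSC), -0.40 to -0.03 (TLR3-MSC) and -0.47 to -0.21 (STING-MSC). Against MSC the ranges were -0.11 to 0.26 (TLR3-MSC) and -0.28 to 0.03 (STING-MSC), so that both changed sign (from 0.05 to -0.11 without MSC 4, and from -0.17 to 0.03 without MSC 2), and between the activated groups the range was -0.27 to -0.07. The 9 values of called or leading bone genes recomputed under each setting kept their sign. Of 198 log2 fold changes (33 bone genes in 6 pairs of groups), 12 had another sign in edgeR or DESeq2 than in limma, each at most 0.12 in size in limma. For STING-MSC against control these were Smpd3 (-0.18 in edgeR and -0.17 in DESeq2) and Bglap2 (0.021 and 0.032), and for MSC against control Runx2 (0.0056 in edgeR).

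Replicate numbers are shared by the groups but mark different mice, and in no comparison did all 5 same-numbered pairs correlate above 0.1 (mean correlation from -0.144 to 0.108). For TLR3-MSC against MSC, however, 4 of the 5 pairs did (mean 0.093, range -0.421 to 0.320). Under a replicate block, 0 bone genes were called for MSC against control, 2 for TLR3-MSC against MSC (Bglap and Ifitm5) and 4 for STING-MSC against control, and the 1 among all groups was Tnn in place of Ifitm5. Genes with few reads, such as Ifitm5, Phospho1 and Dlx6, are limited most by depth.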
